A study of Mus musculus with 2 samples.

Results

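The striated muscle miRNAs are small regulatory RNAs that mark skeletal and cardiac muscle, and their counts are described here in fetal mouse liver. They comprise the 9 genes Mir206, Mir133b, Mir1a-1, Mir1a-2, Mir133a-1, Mir133a-2, Mir208a, Mir208b and Mir499. The genes were chosen by name, with no threshold on their values, and were grouped by genomic locus and by host myosin gene. Counts were analysed for 8 of the 9, out of 1973 miRNA genes in all, and Mir1a-2 was not analysed here. The material was healthy liver at embryonic day 15.5 from the strain B6NCrl, a C57BL/6N stock, with both sexes pooled and no treatment. Replicate 1 pooled 78 embryos and replicate 2 pooled 62, so each of the 2 libraries averages many animals and the spread between them is a spread between pools. There is 1 group, so no conditions could be compared, and the libraries were compared with each other.

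A miRNA is cut from a hairpin precursor, and the mature strand guides Argonaute proteins to messenger RNAs that pair with its seed, the bases near its 5′ end. In striated muscle the members fall into 2 kinds of locus. The miR-1 and miR-133 genes lie in bicistronic pairs whose transcription is driven in muscle by factors such as MyoD, SRF and MEF2. Mir206 and Mir133b form a further such pair, which is used in skeletal muscle. The miR-208 and miR-499 genes lie in introns of myosin heavy chain genes and are made together with those myosins in heart and slow muscle. They are not known as products of hepatocytes.

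The mature sequences of the 5 members that had enough counts to be tested are shown because they define which of these 5 share a seed. They are the guide strands of RefSeq (GRCm38.p6), written 5′ to 3′, and the capitals mark the seed, bases 2 to 8.
miR-206-3p: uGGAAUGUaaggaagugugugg
miR-133b-3p: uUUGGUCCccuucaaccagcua
miR-208a-3p: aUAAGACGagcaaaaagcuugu
miR-208b-3p: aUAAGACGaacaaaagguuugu
miR-499-5p: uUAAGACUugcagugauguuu
The seeds of miR-208a and miR-208b were the same, and miR-499 shared bases 2 to 7 with them. The mature miR-208a and miR-208b differed by 3 substitutions, G10A, A16G and C18U, given as the miR-208a base, the position from the 5′ end and the miR-208b base. Each of the 5 mature sequences belonged to 1 gene among the RefSeq sequences searched. Whether reads of these 5 genes map to 1 place only was not tested. Among the sequences searched, the seed of miR-206 also occurred in the mature sequences of Mir6349 and Mir6382. Both genes had 0 sense counts in replicate 1 and in replicate 2. The sequences searched held no guide strand of the miR-1a or miR-133a genes. Whether those members share a seed with the 5 shown was therefore not examined. The mature sequences are 21 or 22 nt long, so counts were not divided by length.

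The counts are of small RNA reads of under 30 nt assigned to the whole precursor gene, and they do not separate the arms. The precursor sequences of the chromosome 1 pair follow, with both annotated mature arms in capitals, because these are the 2 genes with significantly lower levels in replicate 1, as described below.
Mir206 precursor: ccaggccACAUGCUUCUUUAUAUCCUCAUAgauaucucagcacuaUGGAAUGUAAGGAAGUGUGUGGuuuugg
Mir133b precursor: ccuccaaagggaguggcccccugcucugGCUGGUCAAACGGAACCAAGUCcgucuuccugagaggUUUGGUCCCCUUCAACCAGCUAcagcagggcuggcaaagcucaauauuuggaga

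Positions are those of GENCODE release M21 on mm10 (GRCm38), the assembly of the deposited tables. Mir206 (ENSMUSG00000065559.1) lies on the plus strand of chromosome 1 at 20679010 to 20679082, in intron 2 of the long noncoding RNA gene Gm28653. Mir133b (ENSMUSG00000065480.1) lies 3.69 kb downstream at 20682769 to 20682887, in exon 3 of the same host. Mir499 (ENSMUSG00000076312.1) lies on the plus strand of chromosome 2 at 155622880 to 155622958, in intron 19 of Myh7b, a myosin heavy chain gene of heart and slow muscle. Mir208a (ENSMUSG00000065432.1) lies on the minus strand of chromosome 14 at 54949060 to 54949142, in intron 29 of Myh6, which encodes the alpha cardiac myosin heavy chain. Mir208b (ENSMUSG00000077928.1) lies 26.6 kb away on the same strand at 54975700 to 54975776, in intron 31 of Myh7, which encodes the beta cardiac and slow skeletal myosin heavy chain. Introns and exons were counted in the host transcript with the most exons.

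**Figure D1:**
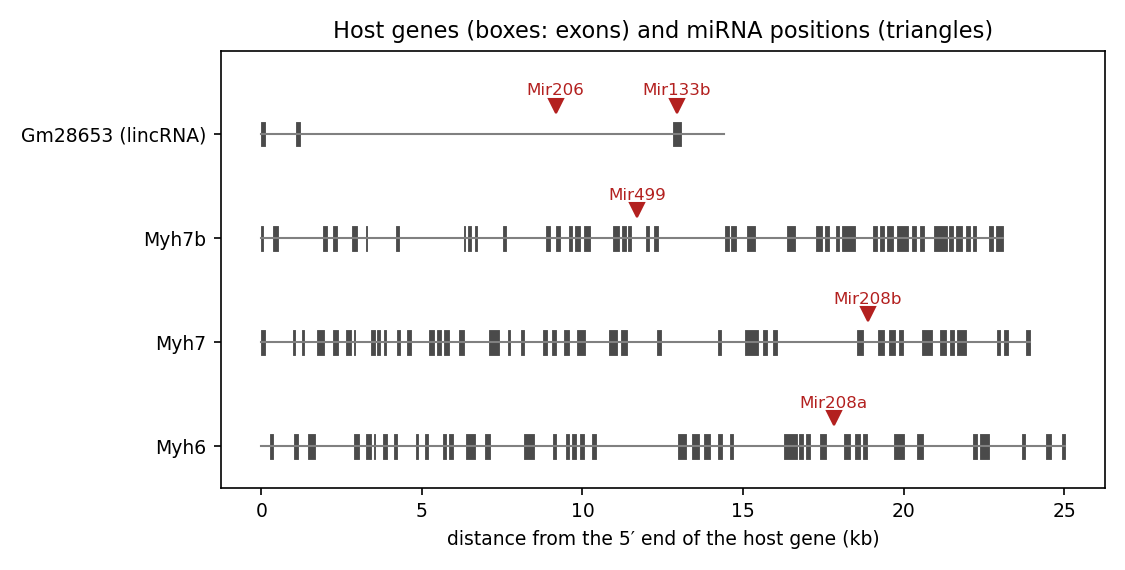
Positions of the 5 tested members in their host genes, with distance from the 5′ end of the host in kb on the horizontal axis; boxes are exons of the transcript with the most exons and triangles are miRNA genes. Mir499, Mir208b and Mir208a lie in introns of Myh7b, Myh7 and Myh6, Mir206 in an intron of Gm28653 and Mir133b in its exon 3.

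Sense counts, those on the strand of the gene, summed over all miRNA genes to 5529166 (replicate 1) and 3169882 (replicate 2), 1.74 times as many in replicate 1. Levels are counts scaled to these totals (CPM). Mir122, the defining miRNA of hepatocytes, reached 182337 CPM in replicate 1 and 168741 in replicate 2 and so was abundant in both libraries. A gene with 0 counts could have up to 3 counts, which is 0.543 CPM in replicate 1 and 0.946 CPM in replicate 2. Intervals below are exact Clopper-Pearson 95% intervals. They and this limit cover counting error only, since amplified reads are not independent molecules.

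Mir206 led the muscle genes. Its miRNA promotes the differentiation of skeletal myoblasts. It had 7906 sense counts in replicate 1 and 8331 in replicate 2, so its count was lower in the library with more reads. These counts are 1430 CPM in replicate 1 (interval 1399 to 1462) and 2628 CPM in replicate 2 (2572 to 2685), a mean of 2029 ± 847 (SD, n = 2). Among all 1973 genes it ranked 81 in replicate 1 and 56 in replicate 2. The gene alone made up 83.0% of the muscle miRNA counts in replicate 1 and 90.8% in replicate 2. In tissue RNA, fewer cells of a type and less of an RNA per cell cannot be told apart.

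Mir133b, whose miRNA family represses serum response factor and sustains myoblast proliferation, was far below its neighbour in counts of uniquely mapped reads. Multimapping reads are not in these counts, and how many of them carry miR-133b was not tested. The sense counts of Mir133b were 52 in replicate 1 and 79 in replicate 2. Its level was 9.40 CPM in replicate 1 (interval 7.02 to 12.3) and 24.9 CPM in replicate 2 (19.7 to 31.1), a mean of 17.2 ± 11.0 (SD, n = 2). Both genes of the chromosome 1 pair were thus lower in replicate 1, and neither gene's intervals overlapped between the libraries.

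The myosin-hosted genes came next. Mir499 had 1059 counts in replicate 1 and 554 in replicate 2, or 192 and 175 CPM, a mean of 183 ± 11.9 (SD, n = 2). Its intervals, 180 to 203 CPM in replicate 1 and 161 to 190 CPM in replicate 2, overlapped. Mir208b had 454 counts in replicate 1 and 192 in replicate 2, which is 82.1 CPM in replicate 1 (interval 74.7 to 90.0) and 60.6 CPM in replicate 2 (52.3 to 69.8), a mean of 71.3 ± 15.2 (SD, n = 2). These intervals were apart. Mir208a, the gene in the intron of the adult cardiac myosin Myh6, was the lowest of the 3 with 51 counts in replicate 1 and 15 in replicate 2. Its level was 9.22 CPM in replicate 1 (interval 6.87 to 12.1) and 4.73 CPM in replicate 2 (2.65 to 7.80), a mean of 6.98 ± 3.18 (SD, n = 2), and its intervals overlapped. All 3 myosin-hosted genes had the higher level in replicate 1, the opposite of the chromosome 1 pair.

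The miR-1a and miR-133a genes were almost without counts. Their miRNAs are the most abundant miRNAs of adult heart and skeletal muscle, where miR-1 promotes differentiation. Mir1a-1 (ENSMUSG00000070144.1), on the plus strand of chromosome 2 at 180389048 to 180389124, had 1 count in replicate 1 and 0 in replicate 2. Mir133a-2 (ENSMUSG00000065460.1), 9.25 kb downstream at 180398379 to 180398482, had 0 counts in both libraries. Mir133a-1 (ENSMUSG00000065399.1), on the minus strand of chromosome 18 at 10782909 to 10782976, had 0 counts in replicate 1 and 1 in replicate 2. Mir1a-1 and Mir133a-2 overlap no host gene in release M21. Mir133a-1 lies in intron 1 of the noncoding RNA Mir133a-1hg and opposite to an intron of Mib1. Its position is that of another version of its identifier and may differ from the one used in counting.

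These 3 low values are not levels of the mature miRNAs. The guide strand of miR-1a is made from both Mir1a genes and that of miR-133a from both Mir133a genes, and the deposited gene counts hold no multimapping reads. Multimapping reads made up 29.3% of replicate 1 and 31.1% of replicate 2. How many of them carry miR-1a, miR-133a or miR-133b was not tested. The lead of Mir206 within the muscle miRNAs therefore holds for gene counts of uniquely mapped reads. The same limit applies to the order of the members and to their ranks among all miRNA genes.

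**Figure D2:**
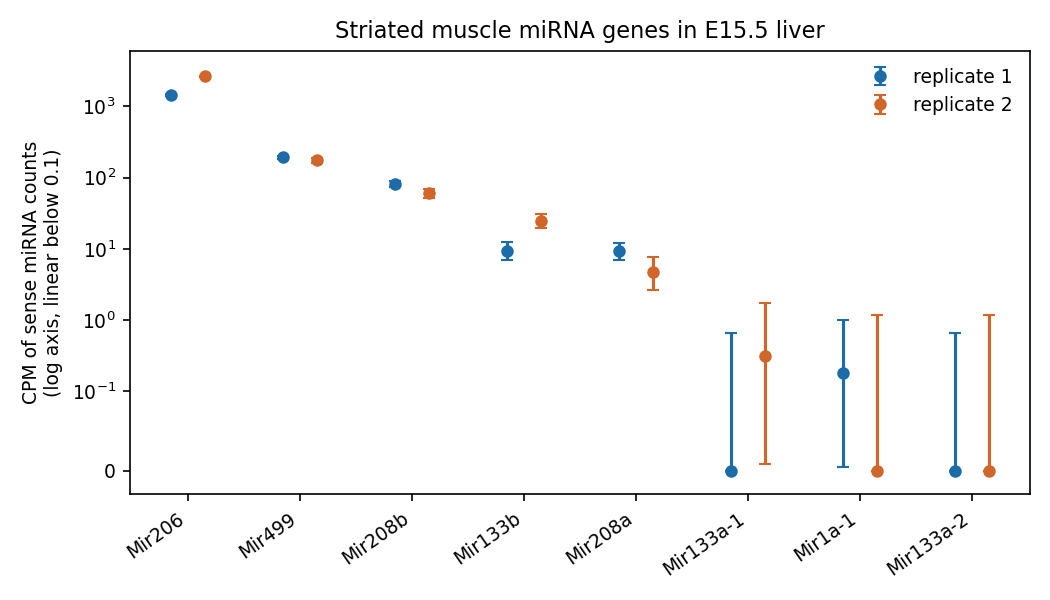
Level of each of the 8 counted muscle miRNA genes in replicate 1 and replicate 2, in CPM of sense miRNA counts on a log axis that is linear below 0.1; points are libraries and bars are exact 95% counting intervals. Mir206 stands at 1430 and 2628 CPM, and Mir133a-1, Mir1a-1 and Mir133a-2 have at most 1 count in either library.

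By mean level the order was Mir206, Mir499, Mir208b, Mir133b and Mir208a. Mir206 was 11.1-fold above Mir499, Mir499 was 2.57-fold above Mir208b, and Mir208b was 4.16-fold above Mir133b. None of these neighbours overlapped in their libraries. Mir133b and Mir208a could not be ordered in replicate 1, where they had 52 and 51 counts, while in replicate 2 their intervals were apart. The 3 miR-1a and miR-133a genes could not be ordered among themselves.

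With at least 10 counts in both libraries, 5 of the 8 members were detected, against 17.8% of all 1973 miRNA genes. A median detected gene stood at 135 CPM, so Mir206 and Mir499 lay above it and Mir208b, Mir133b and Mir208a below it. Together the 8 members held 9523 counts in replicate 1 and 9172 in replicate 2. This is 0.172% of miRNA counts in replicate 1 (interval 0.169 to 0.176) and 0.289% in replicate 2 (0.283 to 0.295). Without Mir206 the share was 0.0292% in replicate 1 and 0.0265% in replicate 2. Mir122 had 128 times the counts of Mir206 in replicate 1 and 64.2 times in replicate 2.

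**Figure D3:**
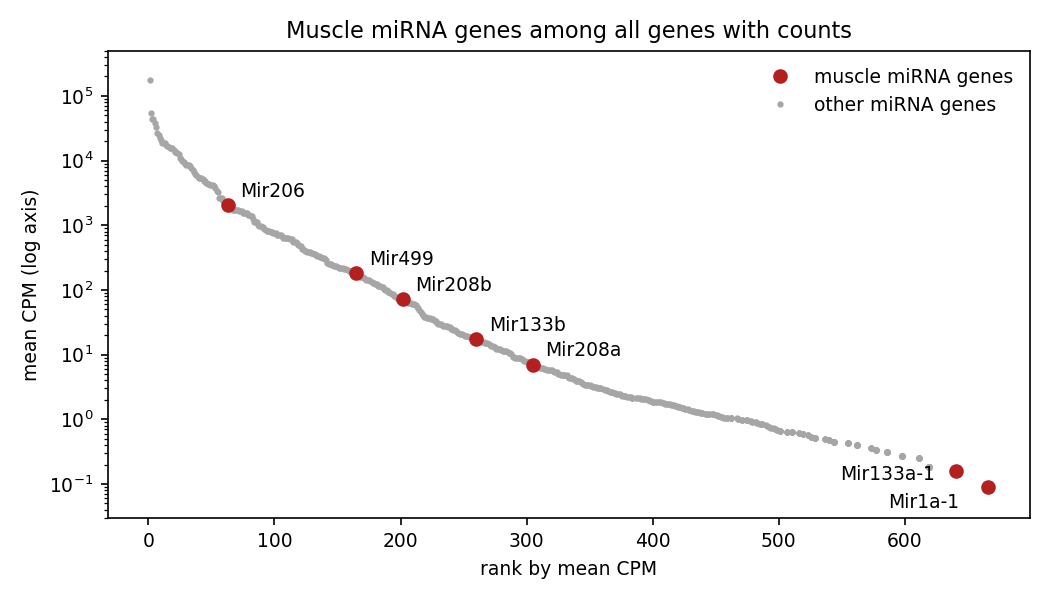
Mean CPM (log axis) against rank for all miRNA genes with counts, with the muscle miRNA genes in red and the others in grey. Mir206 ranks 63 by mean level, Mir499 165, Mir208b 202, Mir133b 260 and Mir208a 305; Mir133a-2 had no counts and is not drawn.

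No member had counts on the opposite strand in either library. Mir206, Mir133b, Mir499, Mir208a and Mir208b thus have the same counts whether or not strand is used.

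The libraries were then compared gene by gene over the whole table, to ask how closely separate pools match. A two-sided exact conditional binomial test was run on the 456 genes with at least 10 counts summed. Library sizes were scaled by TMM, p-values were adjusted by Benjamini and Hochberg, and the threshold was 0.05. The test covers counting error only. At this depth 176 genes, 38.6% of those tested, differed between the libraries, 90 higher in replicate 1 (19.7%) and 86 lower (18.9%). The balance turned to 80 higher and 97 lower when library sizes were scaled by total counts, and to 82 higher and 85 lower with no count minimum. Of the 5 members tested, 3 differed, 1 higher and 2 lower in replicate 1. With 5 genes tested, that count is not set apart from the background.

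Both genes of the chromosome 1 pair were lower in replicate 1. For Mir206 the log2 ratio, replicate 1 over replicate 2, was -0.85 (interval -0.90 to -0.81), so the level was 1.80-fold higher in replicate 2 (exact binomial test, adjusted p = 1.03e-304). For Mir133b it was -1.38 (interval -1.91 to -0.86), or 2.60-fold higher in replicate 2 (exact binomial test, adjusted p = 3.53e-07). The difference in Mir206 was set against the other well counted genes, many of them at lower levels than Mir206. The 185 other genes that averaged 100 CPM or more had log2 ratios with an SD of 0.19. None of these 185 had a ratio as low as that of Mir206. In either direction 1 differed by as much, the erythroid Mir451a, which was higher in replicate 1 (log2 ratio 1.10) and is named here after its value was seen.

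The myosin-hosted genes had positive log2 ratios, of which 1 passed the threshold. Mir208b was 1.38-fold higher in replicate 1, a log2 ratio of 0.47 (interval 0.22 to 0.72, exact binomial test, adjusted p = 0.000628). Mir208a had a log2 ratio of 0.99 (interval 0.14 to 1.93) and missed the threshold (exact binomial test, adjusted p = 0.0538). It passed when only genes with at least 50 counts were tested (adjusted p = 0.0435) and with counts of both strands (adjusted p = 0.0398), and its adjusted p ran up to 0.0773 over the alternatives run. Mir499 had a log2 ratio of 0.16 (interval 0.01 to 0.31, exact binomial test, adjusted p = 0.0892). The 3 genes summed to 283 CPM (replicate 1) and 240 CPM (replicate 2), against 1439 and 2653 CPM for the chromosome 1 pair.

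**Figure D4:**
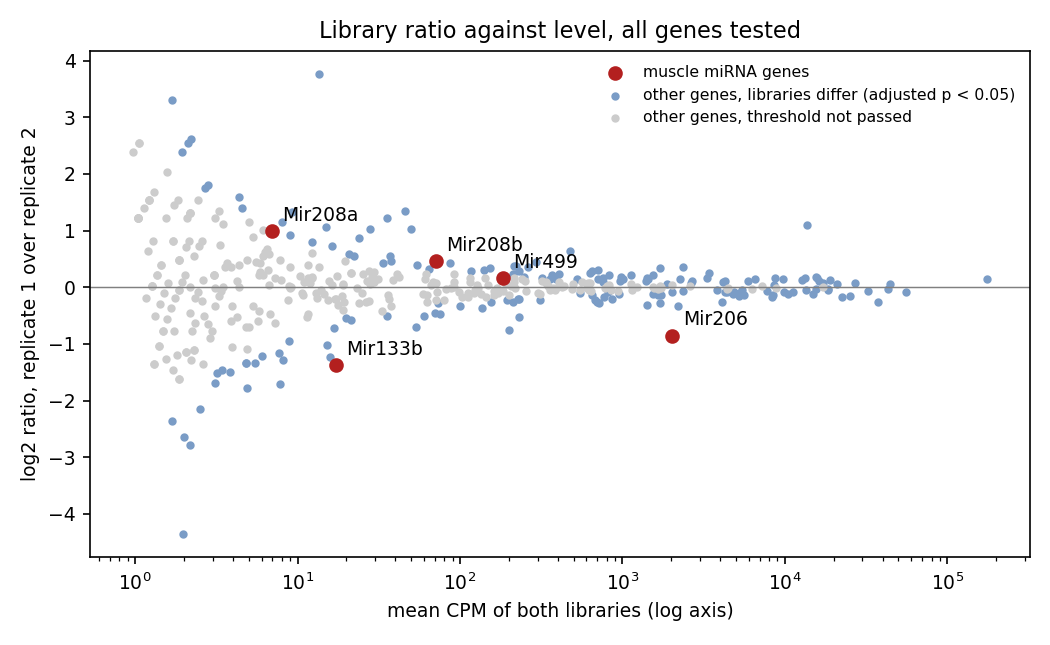
Log2 ratio of each tested gene, replicate 1 over replicate 2, against its mean CPM (log axis); muscle miRNA genes are red, other genes that differ between the libraries blue and the remaining genes grey. Mir206 (-0.85) and Mir133b (-1.38) lie below 0, and Mir499 (0.16), Mir208b (0.47) and Mir208a (0.99) above it.

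Ratios of 2 members within a library need no scaling between libraries. Mir206 counts were 152 times those of Mir133b in replicate 1 (interval 116 to 204) and 105 times in replicate 2 (84.5 to 133), and these intervals overlapped. Overlap does not show that a ratio was equal in both libraries, and differences of ratios between the libraries were not tested. For comparison, 113 neighbouring pairs of detected miRNA genes on the same strand lay within 10 kb of each other. The median pair differed by 3.03 on the log2 scale of levels and the Mir206 and Mir133b pair by 6.98, and 10 of the 113 pairs, this one included, differed by at least that much. Genes with copies elsewhere, whose multimapping reads were not counted, were not set apart among these pairs. In 30 of the pairs both genes differed between the libraries, in the same direction in 22, the Mir206 and Mir133b pair among them, and in opposite directions in 8.

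On chromosome 14, Mir208b counts were 8.90 times those of Mir208a in replicate 1 (interval 6.65 to 12.1) and 12.8 times in replicate 2 (7.57 to 23.3). The gene in the beta myosin host was thus the higher of the 2 in both pools. Mir499 counts were 2.33 times those of Mir208b in replicate 1 (interval 2.09 to 2.61) and 2.89 times in replicate 2 (2.44 to 3.42). Within each of these pairs the intervals of the libraries overlapped, also for Mir499 and Mir208b, which lie on different chromosomes. For Mir206 over Mir499 they did not. Mir206 counts were 7.47 times those of Mir499 in replicate 1 (interval 7.00 to 7.97) and 15.0 times in replicate 2 (13.8 to 16.4).

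**Figure D5:**
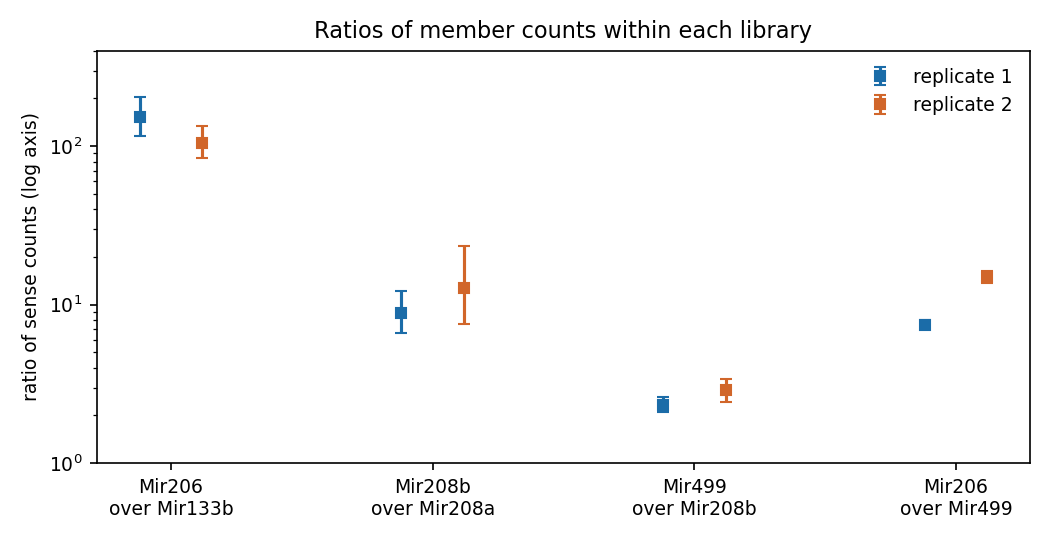
Ratio of sense counts of 2 muscle miRNA genes within each library, on a log axis; squares are libraries and bars exact conditional 95% intervals. The intervals of the libraries overlap for Mir206 over Mir133b, Mir208b over Mir208a and Mir499 over Mir208b, which does not show equal ratios. For Mir206 over Mir499 they are apart, with ratios of 7.47 in replicate 1 and 15.0 in replicate 2.

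The genes whose ratio between the libraries was nearest to that of Mir206, among 185 other genes at or above 100 CPM, were Gm23935 (-0.76), Mir6236 (-0.53) and Mir700 (-0.37), as log2 ratios. Likeness here is the absolute difference of log2 ratios over 2 libraries. In CPM, Gm23935 had 146.7 in replicate 1 and 252.4 in replicate 2, below Mir206 in both. For Mir208b the nearest were Mir182 (0.44), Mir145a (0.38) and Mir181b-2 (0.37). For Mir499 they were Mir146, Mir500 and Mir99a, all at 0.16.

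A list of 26 miRNA genes that act in muscle development without being restricted to muscle was set beside the members. Counts were analysed for 24 of them. Of these, 9 (37.5%) differed between the libraries, 5 higher and 4 lower in replicate 1, against 38.6% of all 456 genes tested. The median log2 ratio was 0.01, against 0.02 over all genes tested. Some genes of the list have copies elsewhere, whose multimapping reads were not counted. The 4 highest genes of the list were Mir322, Mir23b, Mir351 and Mir214. Mir322, whose miRNA slows the cell cycle of differentiating myoblasts, had 20847 CPM (replicate 1) and 24010 CPM (replicate 2). Mir214 had 798 CPM (replicate 1) and 933 CPM (replicate 2), Mir23b 9093 and 8271, and Mir351 2752 and 2580. In both pools Mir322 and Mir23b were thus above Mir206, while Mir214 was below it.

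Markers of other cell types moved between the libraries too, by the test that covers counting error only. Over all 456 genes tested, 19.7% were higher and 18.9% lower in replicate 1. The hepatocyte list summed to 187267 CPM (replicate 1) and 173241 CPM (replicate 2), with 5 of 5 genes higher in replicate 1. The epithelial list summed to 4052 CPM (replicate 1) and 3266 CPM (replicate 2), again with 5 of 5 higher in replicate 1 past the threshold. The pancreas and gut endocrine list summed to 1906 CPM (replicate 1) and 1529 CPM (replicate 2), with 1 of 4 genes higher past the threshold. In the smooth muscle and mesenchyme list, 21246 CPM (replicate 1) and 20442 CPM (replicate 2), 2 of 6 genes were higher and 2 lower in replicate 1 past the threshold. The erythroid list, 27150 CPM (replicate 1) and 18579 CPM (replicate 2), had 1 of 3 genes higher and 2 lower, and the endothelial Mir126a was at 44812 and 43586 CPM. In the neural list, 4 of the 5 genes analysed had 0 counts in both libraries, and the list summed to 3.07 CPM (replicate 1) and 1.26 CPM (replicate 2). The genes of this list are copies of miR-124 and miR-9, and the deposited gene counts hold no multimapping reads. Its values are therefore not levels of the mature miRNAs. The part of other tissues or cell types in the levels of the muscle miRNAs was not tested.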

How the data were processed

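Small RNA of under 30 nt was sequenced from 2 pools of fetal liver. The authors deposited raw read counts per miRNA gene, with columns for both strands, the gene's strand and the opposite strand. Genome mm10 and annotation M4 are named in text deposited with the tables. The aligner is not given in the sources used here, nor is the counter. Unmapped reads (23.9% in replicate 1, 21.4% in replicate 2), reads mapping to several places (29.3% and 31.1%) and reads outside miRNA genes (5.40% and 6.23%) entered no total or test. Intervals are narrow for Mir206 and wide for genes with few counts.

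Names and positions came from GENCODE M21. Of 1973 identifiers 1894 matched, 79 of these in another version. CPM, exact intervals and the binomial test were computed in Python 3.11.15 with SciPy 1.17.1, and TMM in edgeR 4.0.16 and DESeq2 1.42.0 size factors in R 4.3.3. The quasi-likelihood test of edgeR was not used, since 1 library a side leaves no residual degrees of freedom. The binomial test was tested on simulated data. Alternatives were strand, scaling, count minimum and leaving out each library. All members are named, with the 3 nearest genes by library ratio and the 4 highest of the myogenesis list. The members and lists were chosen with earlier results of these data known.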

Additional observations from a re-analysis of the deposited data

Results flagged for a closer look

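A few counts lay outside those used for the members. Mir1b (ENSMUSG00000080662.1) overlaps Mir1a-2 on the other strand, at 10785446 to 10785567 of chromosome 18. On the strand opposite to Mir1b, which is that of Mir1a-2, lay 4 counts in replicate 1 and 1 count in replicate 2. On its own strand Mir1b had 14 counts in replicate 1 and 3 in replicate 2. Giving the opposite-strand counts to Mir1a-2, a choice made after seeing the data, leaves that gene below the minimum of 10.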

How the results depend on the processing

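The values were recomputed with counts of both strands, other scalings, other count minimums and each library left out, which gave 101 alternative values of 22 results. Of these, 25 were log2 ratios of the 5 tested members, and none changed sign. The balance of higher and lower calls over all genes did turn, with 90 higher and 86 lower in replicate 1 under TMM and 80 higher and 97 lower under total counts. The summed share of the members depended on Mir206: its mean of 0.231% became 0.0279% without that gene. The mean level of Mir206 ranged from 1430 to 2628 CPM and the share from 0.172% to 0.289% when each library was left out. The members that differed between the libraries numbered 3, and 4 with Mir208a past the threshold, under a minimum of 50 counts or with both strands. The other members kept their side of the threshold under every scaling and minimum run. The levels of Mir499 (167 CPM with both strands, 222 CPM over totals without Mir122) and Mir208b (86.6 CPM over totals without Mir122) moved by more than their SD with the denominator. Depth limits Mir208a and Mir133b most, and the 3 genes with at most 1 count allow no comparison. No paired analysis was possible because there is 1 group.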
